A study of Homo sapiens with 108 samples.

Results

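The mRNAs of 10 BCL2 family apoptosis regulators were followed by metabolic labelling in HEK293T cells, a line derived from human embryonic kidney and transformed in culture. The members are BAX, BAK1, BCL2L1, MCL1, PMAIP1, BBC3, BCL2L11, HRK, BID and BAD, chosen by name from the 19761 genes counted. Each level and label is the sum over the 3′ UTR intervals that carry a member's Ensembl identifier. The cells carried a lentiviral short hairpin RNA (shRNA), selected with puromycin, against 1 of 8 zinc-finger proteins (ZMAT3, ZMAT5, ZNF706, ZFP36L1, PHF7, MAZ, CNOT4 and BRCA1) or a non-targeting hairpin (NT). All 9 arms were kept in 10 µM 4-thiouridine (4SU) for 24 h, the medium being renewed every 8 h. Uridine at 1 mM then replaced the label, and cells were taken after chases of 0, 2, 4 and 8 h. With 3 biological replicates at each of the 4 chase times, each of the 9 arms holds 12 libraries. In SLAM-seq, alkylated 4SU is read as C, so the T>C rate, the percentage of covered T positions read as C, measures how much labelled RNA is left. The question behind the series was how zinc-finger proteins affect the level and the lifetime of mRNAs. All arms are transduced cells of 1 line, and the 8 comparisons share the same NT libraries. In bulk RNA, fewer cells with an mRNA and less mRNA per cell cannot be told apart.

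The BCL2 family decides whether the outer mitochondrial membrane stays intact. BAX and BAK1 form the pores that release cytochrome c, BCL-XL (from BCL2L1) and MCL1 hold them in check, and the BH3-only proteins NOXA (PMAIP1), PUMA (BBC3), BIM (BCL2L11), HRK, BID and BAD bind the guards or the pore formers to tip the balance. Several of these mRNAs, MCL1 and PMAIP1 among them, are known to turn over quickly, and AU-rich elements in a 3′ UTR are one known route to fast decay.

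AU-rich heptamers are shown first, as sequence background. Several members that lost their label fast in NT held them, but BAK1 and BBC3, which also lost it fast, held none. HRK held 1 and kept 31.1% of its 0 h rate in NT at 8 h. A link between heptamers and label loss was not tested. The counted intervals were searched on the transcribed strand for TATTTAT and for its core ATTTA, which lies inside every TATTTAT. MCL1 held 3 heptamers in an interval of 2826 bases at chr1:150574552-150577377 on the minus strand of hg38. PMAIP1 also held 3, in 1555 bases at chr18:59902752-59904306 on the plus strand. BCL2L11 held 2 in its most-read interval, 4314 bases at chr2:111164134-111168447 on the plus strand. Each window is written 5′ to 3′ as the RNA strand in DNA letters, with the heptamer in capitals and 10 bases on either side.
MCL1, chr1:150575808-150575834: cctctacagaTATTTATatcaattcct
MCL1, chr1:150575193-150575219: tttacctatgTATTTATcgttcttgat
MCL1, chr1:150575165-150575191: ataagccgctTATTTATatcatgtatc
PMAIP1, chr18:59903962-59903988: ggaataatttTATTTATtttgcctatt
PMAIP1, chr18:59903975-59904001: ttattttgccTATTTATaattaaagta
PMAIP1, chr18:59904210-59904236: taccatctggTATTTATggtctaattt
BCL2L11, chr2:111166864-111166890: atattgtgagTATTTATtagattcgta
BCL2L11, chr2:111167085-111167111: aaatattgtaTATTTATtttctgctta

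Such heptamers were common in intervals of like length: 53.1% of 1169 intervals as long as that of MCL1 held at least 1, 34.7% of 1517 for PMAIP1 and 67.1% of 794 for BCL2L11. BCL2L1 and HRK held 1 each. The intervals of BAK1 (1360 bases) and BBC3 (980 bases) held neither TATTTAT nor ATTTA, although 81.2% and 71.8% of intervals of their lengths held an ATTTA. The main interval of BAX, 703 bases at chr19:48961096-48961798 on the plus strand, also held neither. Across all genes with a half-life in NT, the median was 2.83 h for 2334 genes with a heptamer and 3.70 h for 3210 without. These sets were not matched for interval length or base content. Long intervals held a heptamer more often, 69.9% of those near 5322 bases against 0.858% of those near 118. The part of length in the difference was not tested.

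Depth sets how firmly these values can be read. Libraries held 63659 to 30750027 reads in 3′ UTRs, with NT between 8206060 and 13359455. A pair of libraries was shallow, PHF7 8 h replicate 3 with 63659 reads and CNOT4 2 h replicate 3 with 1781724. PHF7 8 h replicate 3 had no read for 9 of the 10 members. The libraries labelled CNOT4 and ZFP36L1 covered fewer T positions per read than NT, 27.7 to 34.0 and 25.9 to 33.0 against 37.1 to 37.8. Their multimapped share was 9.34% to 11.9% in CNOT4 at 0 to 4 h and 9.21% to 12.4% in ZFP36L1, against 6.66% to 6.91% in NT. The CNOT4 8 h libraries differed from the other CNOT4 libraries in their file header and in a multimapped share of 5.82% to 5.91%. In both arms the hairpin and these read features go together, and their part in the levels was not tested. CNOT4 mRNA was at 47.1 ± 21.1 normalised CPM, reads scaled to library size (SD, n = 12), in its own libraries and 46.9 ± 14.3 in NT, and ZFP36L1 mRNA was higher in the libraries labelled ZFP36L1, 64.3 ± 13.0 against 37.2 ± 17.2. In its own arm the targeted mRNA was at 53.4% of NT for BRCA1, 12.2% for MAZ, 23.8% for PHF7, 24.9% for ZMAT3, 10.4% for ZMAT5 and 48.9% for ZNF706 by the fit, with BRCA1 and PHF7 short of the threshold (edgeR adjusted p of 0.220 and 0.336). The PHF7 value rests on few reads, 1.24 ± 1.59 CPM in its own arm and 4.26 ± 6.63 in NT. The study's methods describe a qPCR check of knockdown in the SLAM-seq cells, which these counts do not include. CNOT4 and ZFP36L1 are used below as labels of libraries. Of the HEK293 lineage markers, only NEFL was read in every library (14.98 to 118 CPM). NEFM, PODXL, EYA1, LHX1 and PAX2 had medians of 38.3, 26.6, 6.83, 1.55 and 0 CPM, each with a lowest library at 0. The summed level of 15 markers of other cell types was 0 to 148.5 CPM, the highest value being all COL1A1 in the PHF7 arm. COL1A1, a fibroblast marker, had a median of 14.9 CPM, above those of EYA1, LHX1 and PAX2.

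Levels are given as CPM normalised with trimmed mean scaling. All 10 members passed the low-count filter in all 8 comparisons. A member was called at an edgeR adjusted p under 0.05 with a fold over 1.2, and the 80 tests gave 17 calls, 5 higher and 12 lower than NT. In the 0 h libraries alone, with 3 a side, 10 of the 17 were lost. Members called numbered 1 in BRCA1, 4 in CNOT4, 1 in MAZ, 3 in PHF7, 4 in ZFP36L1, 2 in ZMAT3, 2 in ZMAT5 and 0 in ZNF706. In ZNF706 DESeq2 called 3. Members with an unadjusted p under 0.05 by edgeR numbered 2, 5, 3, 5, 6, 4, 5 and 5 in that order of arms. Of all genes, 877 of 12735, 4867 of 13308, 2926 of 13398, 2795 of 13324, 6260 of 13253, 3143 of 13307, 2848 of 13149 and 2162 of 13072 had such a p.

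The counts of called members stand beside the following shares of all tested genes that were called. BRCA1 called 0.0785% of genes, with 0.0393% higher and 0.0393% lower. The CNOT4 libraries called 27.0% (13.5% higher, 13.5% lower) and those labelled ZFP36L1 40.0% (21.7% higher, 18.3% lower), so that 4 of 10 members there is close to the share of all genes. MAZ called 8.74% (5.19% higher, 3.55% lower) and PHF7 8.41% (3.89% higher, 4.53% lower). ZMAT3 called 10.2% (5.49% higher, 4.75% lower), ZMAT5 9.51% (5.29% higher, 4.22% lower) and ZNF706 5.15% (2.85% higher, 2.29% lower). The 12 libraries of the arm and the 12 of NT did not overlap in 7 of the 80 tests, 1 in CNOT4, 2 in PHF7, 2 in ZFP36L1, 1 in ZMAT3 and 1 in ZMAT5, where 4.56%, 1.06%, 7.44%, 0.654% and 0.844% of all genes did not overlap. No member was free of overlap in BRCA1, MAZ or ZNF706, beside 0.0157%, 0.567% and 0.321% of all genes.

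**Figure D1:**
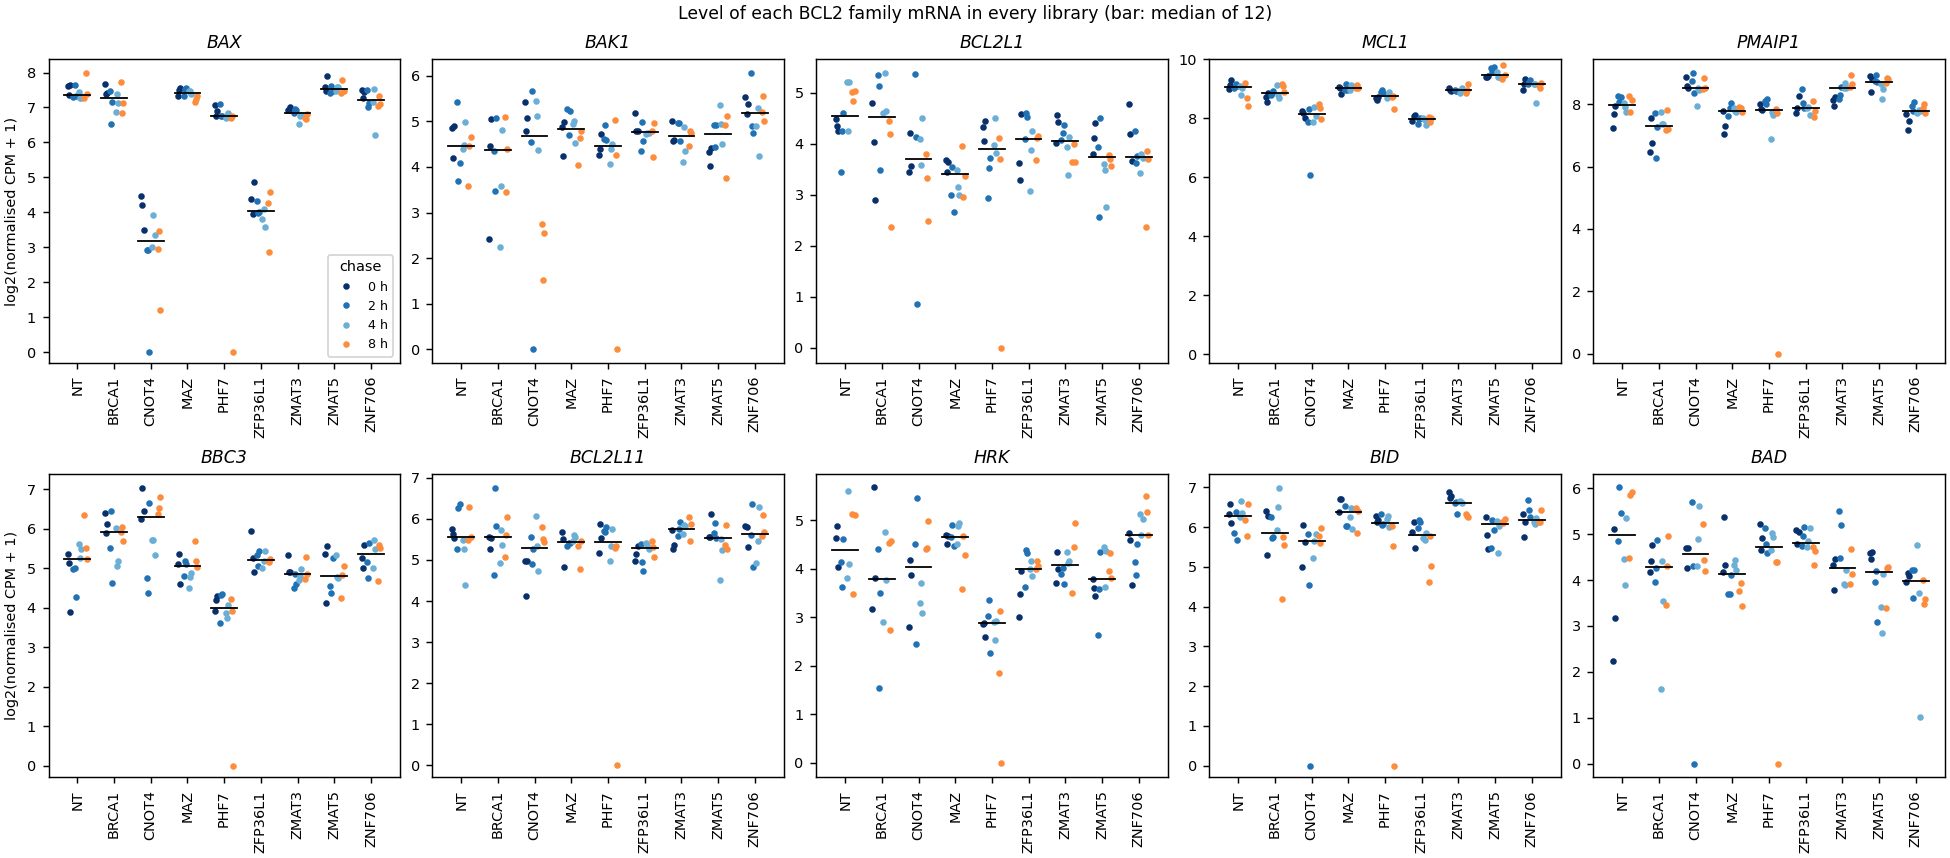
Level of each member in every library as log2(normalised CPM + 1), by arm, with points coloured by chase time and a bar at the median of 12 libraries. BAX is low in all CNOT4 and ZFP36L1 libraries, and the isolated points at 0 are the shallow libraries PHF7 8 h replicate 3 and CNOT4 2 h replicate 3.

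BAX, the pore former that moves from the cytosol to mitochondria, had the largest difference from NT among the members. In NT its level ran from 153 to 252 CPM, with a median of 165 over 12 libraries. In the CNOT4 libraries it ran from 0 to 21.0 with a median of 8.08. In the libraries labelled ZFP36L1 the range was 6.37 to 28.4 with a median of 15.5. Every library of both arms lay below every NT library, and the only CNOT4 library without a BAX read was the shallow one at 2 h. The fitted log2 fold was −4.39 ± 0.32 (SE) in CNOT4, with an adjusted p of 2.92e-12 by edgeR, and −3.44 ± 0.16 in ZFP36L1, with an adjusted p of 4.75e-19 by edgeR. Without the CNOT4 8 h libraries the fold was −4.20, and without the shallow library it was −4.21.

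The same low level was seen in each chase time. In CNOT4 the mean was 16.3 ± 5.43, 4.43 ± 3.84, 10.2 ± 3.77 and 6.06 ± 4.45 CPM at 0, 2, 4 and 8 h (SD, n = 3 each), and in ZFP36L1 it was 20.9 ± 6.96, 16.3 ± 2.29, 13.4 ± 2.49 and 15.9 ± 8.59. BAX reads fell on 4 intervals in NT, 84.8% of them on the last and 12.1% on one at chr19:48956199-48956316. That upstream interval held 2679 reads in NT, 2 in CNOT4 and none in ZFP36L1, where all 1348 BAX reads lay on the last interval. BAX reads also covered fewer T positions in these libraries, 15.7 per read in CNOT4 and 14.1 in ZFP36L1 against 28.2 in NT. The part of this shorter coverage in the difference was not tested. Only 1.66% or less of BAX reads were multimapped in any arm.

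BAX was also lower under the PHF7 and ZMAT3 hairpins, by a smaller amount. With the PHF7 hairpin the level was 0 to 136 CPM with a median of 107.7, and it was 103 to 136 once the shallow library was left out. With the ZMAT3 hairpin it was 90.4 to 129 with a median of 113. Neither range reached the lowest NT library. The log2 fold was −0.70 ± 0.15 in PHF7, with an adjusted p of 0.00284 by edgeR, and −0.65 ± 0.09 in ZMAT3, with an adjusted p of 1.87e-06 by edgeR. In PHF7 the call was lost without replicate 1 (edgeR adjusted p = 0.0867) and without replicate 2 (edgeR adjusted p = 0.158), and in both arms it was lost when the other 7 targeting arms stood in for NT, with log2 folds of −0.09 and −0.01. That reference includes the low CNOT4 and ZFP36L1 libraries. In the remaining arms, BRCA1, MAZ, ZMAT5 and ZNF706, the log2 folds were between −0.26 and 0.11 and did not pass.

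BAK1, the pore former resident on mitochondria, passed the test in none of the 8 arms. Its NT level was 10.9 to 41.7 CPM with a median of 21.1, and each arm overlapped that range. The log2 folds ran from −0.29 in BRCA1 to 0.69 ± 0.25 in ZNF706, where the adjusted p by edgeR was 0.105. Of BAK1 reads, 18.6% to 43.2% per arm were multimapped, against 34.5% in NT, so its counts may include reads of a near-identical sequence elsewhere.

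MCL1 encodes a short-lived guard protein. NT libraries ran from 338 to 626 CPM with a median of 532. The libraries labelled ZFP36L1 ran from 217 to 277 with a median of 253, wholly below NT. CNOT4 libraries ran from 65.6 to 353 with a median of 280, and only the top of their range overlapped NT. The log2 fold was −1.05 ± 0.08 in ZFP36L1 (edgeR adjusted p = 3.44e-13) and −0.95 ± 0.16 in CNOT4 (edgeR adjusted p = 2.13e-05). The lowest CNOT4 value came from the shallow library, without which the fold was −0.82. MCL1 reads covered 39.2 and 39.5 T positions each in CNOT4 and ZFP36L1 and 40.8 in NT, a smaller gap than for BAX.

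With the ZMAT5 hairpin MCL1 was higher than in NT. The 12 libraries ran from 650 to 903 CPM with a median of 705, all above the highest NT library. This was a log2 fold of 0.54 ± 0.08, with an adjusted p of 4.44e-06 by edgeR. The 0 h libraries alone gave 0.28 (edgeR adjusted p = 0.414), with 3 libraries a side. The other 5 arms had log2 folds between −0.25 and 0.12 and did not pass. In order of mean level, ZFP36L1 and CNOT4 were lowest and overlapped each other, PHF7, BRCA1, ZMAT3, NT, MAZ and ZNF706 followed with overlapping ranges, and ZMAT5 stood above them without overlap.

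BCL2L1, which encodes BCL-XL, was lower with the MAZ hairpin. NT libraries ran from 9.84 to 36.2 CPM with a median of 22.4, and MAZ libraries from 5.29 to 14.6 with a median of 9.64. Both ranges overlapped at the low end of NT. The difference was −1.35 ± 0.28 on the log2 scale with an adjusted p of 0.00119 by edgeR. The call was lost without replicate 3 (log2 fold −1.16, edgeR adjusted p = 0.0879) and against the other 7 targeting arms (−0.69, edgeR adjusted p = 0.0642). NT had the highest mean BCL2L1 level of the 9 arms, 24.2 ± 8.28 CPM (SD, n = 12), and the log2 fold was below 0 in all 8 arms, −0.17 to −0.90 in the arms that did not pass. Since all 8 share NT, these signs are not separate observations.

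**Figure D2:**
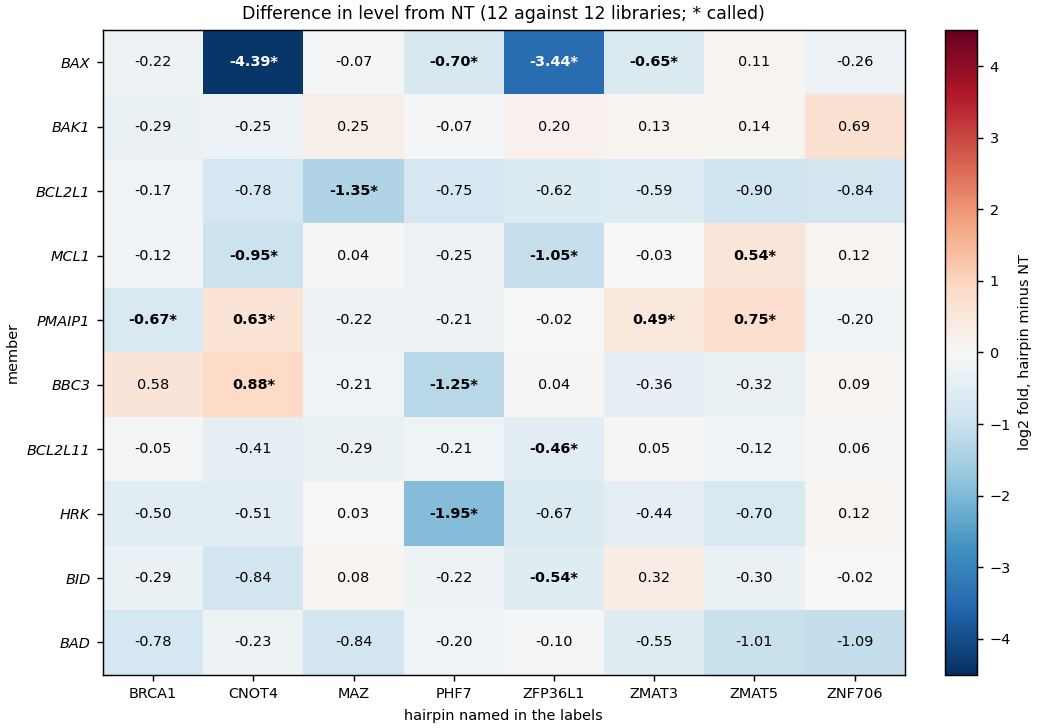
Fitted log2 fold of each member (rows) under each hairpin (columns) against NT, 12 libraries on either side, with an asterisk on the 17 values that were called. The deepest blue cells are BAX in CNOT4 (−4.39) and ZFP36L1 (−3.44), and PMAIP1 was called higher in 3 arms and lower in 1.

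PMAIP1 encodes NOXA, a BH3-only protein that binds MCL1. It was called in 4 arms, higher in 3 and lower in 1, and BAX was the other member called in 4. NT libraries ran from 151 to 306 CPM with a median of 253. With the ZMAT5 hairpin the range was 287 to 492 with a median of 421, so that only the lowest ZMAT5 library overlapped the top of NT. CNOT4 libraries ran from 242 to 511 with a median of 366, and ZMAT3 libraries from 243 to 489 with a median of 364. These ranges overlapped NT at their lower ends. The log2 fold was 0.75 ± 0.09 in ZMAT5 (edgeR adjusted p = 1.22e-07), 0.63 ± 0.11 in CNOT4 (edgeR adjusted p = 6.55e-05) and 0.49 ± 0.08 in ZMAT3 (edgeR adjusted p = 0.000132). The ZMAT5 and CNOT4 calls held in each alternative run, and the ZMAT3 call was lost in the 0 h libraries alone and against the other 7 targeting arms, where the log2 folds were 0.45 and 0.42.

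With the BRCA1 hairpin PMAIP1 was lower, at 75.7 to 223 CPM with a median of 158. It was 1 of 10 genes called among 12735 in that arm. The log2 difference was −0.67 ± 0.14 with an adjusted p of 0.0375 by edgeR. The call was lost without replicate 1 (log2 fold −0.70, edgeR adjusted p = 0.317), without replicate 3 (−0.58, edgeR adjusted p = 0.760) and without the 8 h libraries (−0.68, edgeR adjusted p = 0.126). It was also lost with the replicate number as a block (−0.68, edgeR adjusted p = 0.0533) and in the 0 h libraries alone (−0.64, edgeR adjusted p = 0.999). BRCA1 and NT libraries overlapped between 151 and 223 CPM.

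BBC3, which encodes the p53 target PUMA, moved in opposite directions in CNOT4 and PHF7. NT libraries ran from 13.9 to 81.0 CPM with a median of 37.0. CNOT4 libraries ran from 19.7 to 131 with a median of 78.0, and PHF7 libraries from 0 to 19.3 with a median of 14.9. CNOT4 libraries spread over the NT range and above it. Of 12 PHF7 libraries, 8 lay in the lower part of the NT range and 4 below it. The log2 fold was 0.88 ± 0.27 in CNOT4 (edgeR adjusted p = 0.0143) and −1.25 ± 0.26 in PHF7 (edgeR adjusted p = 0.00200). In CNOT4 the call was lost without the 8 h libraries (edgeR adjusted p = 0.0727), without replicate 2 (edgeR adjusted p = 0.0996) and without replicate 3 (log2 fold 0.44, edgeR adjusted p = 0.205). In PHF7 it was kept without the shallow library (log2 fold −1.19) and lost without replicate 1 or replicate 2.

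HRK, a BH3-only protein best known from neurons, was lower with the PHF7 hairpin. NT libraries ran from 10.2 to 47.7 CPM with a median of 20.1, and PHF7 libraries from 0 to 9.28 with a median of 6.37. No PHF7 library reached the lowest NT library, and without the shallow one the lowest was 2.61. Its log2 fold was −1.95 ± 0.35 with an adjusted p of 0.000355 by edgeR, and −1.90 without the shallow library. HRK was called in no other arm.

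BCL2L11, the mRNA of BIM, and BID, which caspase-8 cleaves to an active form, were each called only in the libraries labelled ZFP36L1. BCL2L11 ran from 25.3 to 43.2 CPM there against 20.1 to 81.5 in NT, so the lower range lay inside the NT range. Its log2 fold was −0.46 ± 0.18 (edgeR adjusted p = 0.0399), and the call was lost in 9 of 13 alternatives. BID ran from 23.5 to 70.9 CPM with a median of 55.0, against a lowest NT library of 50.3 and an NT median of 77.1, and the ranges overlapped. Its log2 fold was −0.54 ± 0.16 (edgeR adjusted p = 0.00530), and it was −0.19 (edgeR adjusted p = 0.347) in the test of its most-read interval alone. The BID call was also lost without the 8 h libraries (−0.37, edgeR adjusted p = 0.0663), against the other 7 targeting arms (−0.40, edgeR adjusted p = 0.105) and in the 0 h libraries alone (−0.52, edgeR adjusted p = 0.226). In CNOT4 the BID fold was lower still, −0.84 ± 0.32, and missed the threshold (edgeR adjusted p = 0.0533). The share of BID reads on that interval was 96.8% in ZFP36L1 and 82.0% in NT.

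BAD, a BH3-only protein controlled by phosphorylation, was called in no arm. Its level in NT ran from 3.68 to 63.7 CPM with a median of 30.7, the widest relative spread of the members in NT. The log2 folds were −0.10 to −1.09, lowest in ZNF706 (edgeR adjusted p = 0.0968) and ZMAT5 (edgeR adjusted p = 0.0689). DESeq2, the fit of all libraries together and the fit without a low-count filter called both of these lower.

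No member's difference from NT depended on chase time at the threshold in any arm, with a lowest adjusted p of 0.592 by edgeR and 1 of 80 tests at an unadjusted p under 0.05. Of all genes, 0.0157% passed in BRCA1, 0.571% in CNOT4 and none in the other arms. In NT itself, none of the 10 members passed between 8 h and 0 h by edgeR, and none of 11299 genes did. BAD was the 1 member with an unadjusted p under 0.05, with a log2 change of 1.60 ± 0.74 (unadjusted p = 0.0465 in the edgeR fit).

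Label at the end of the 4SU period and its loss in the chase were measured next. In NT at 0 h, T>C rates were 3.97% ± 1.72 for BCL2L1, 3.02% ± 0.48 for MCL1, 2.96% ± 2.16 for BAK1 and 2.84% ± 1.15 for PMAIP1 (SD, n = 3 each). BBC3 was at 2.10% ± 0.24, and BAX, BCL2L11, BID, HRK and BAD were at 0.76% to 1.49%. The mean pooled rate over 6372 genes was 1.79% ± 0.08. The individual BAK1 libraries were at 2.63%, 5.27% and 0.99%, which shows how far low-count members spread.

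After 8 h the members had separated. MCL1 kept 1.66% of its 0 h rate, PMAIP1 1.84%, BCL2L11 2.20%, BAK1 0.968% and BBC3 0.227%. BAX kept 52.5% and BID 40.6%, HRK 31.1% and BCL2L1 9.75%. The BAD rate did not fall, being 0.76% ± 0.91 at 0 h and 0.95% ± 0.20 at 8 h. Behind the MCL1 values lay 24240 conversions at 0 h and 267 at 8 h, but behind the BAK1 and BBC3 values at 8 h lay 3 and 4 conversions.

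**Figure D3:**
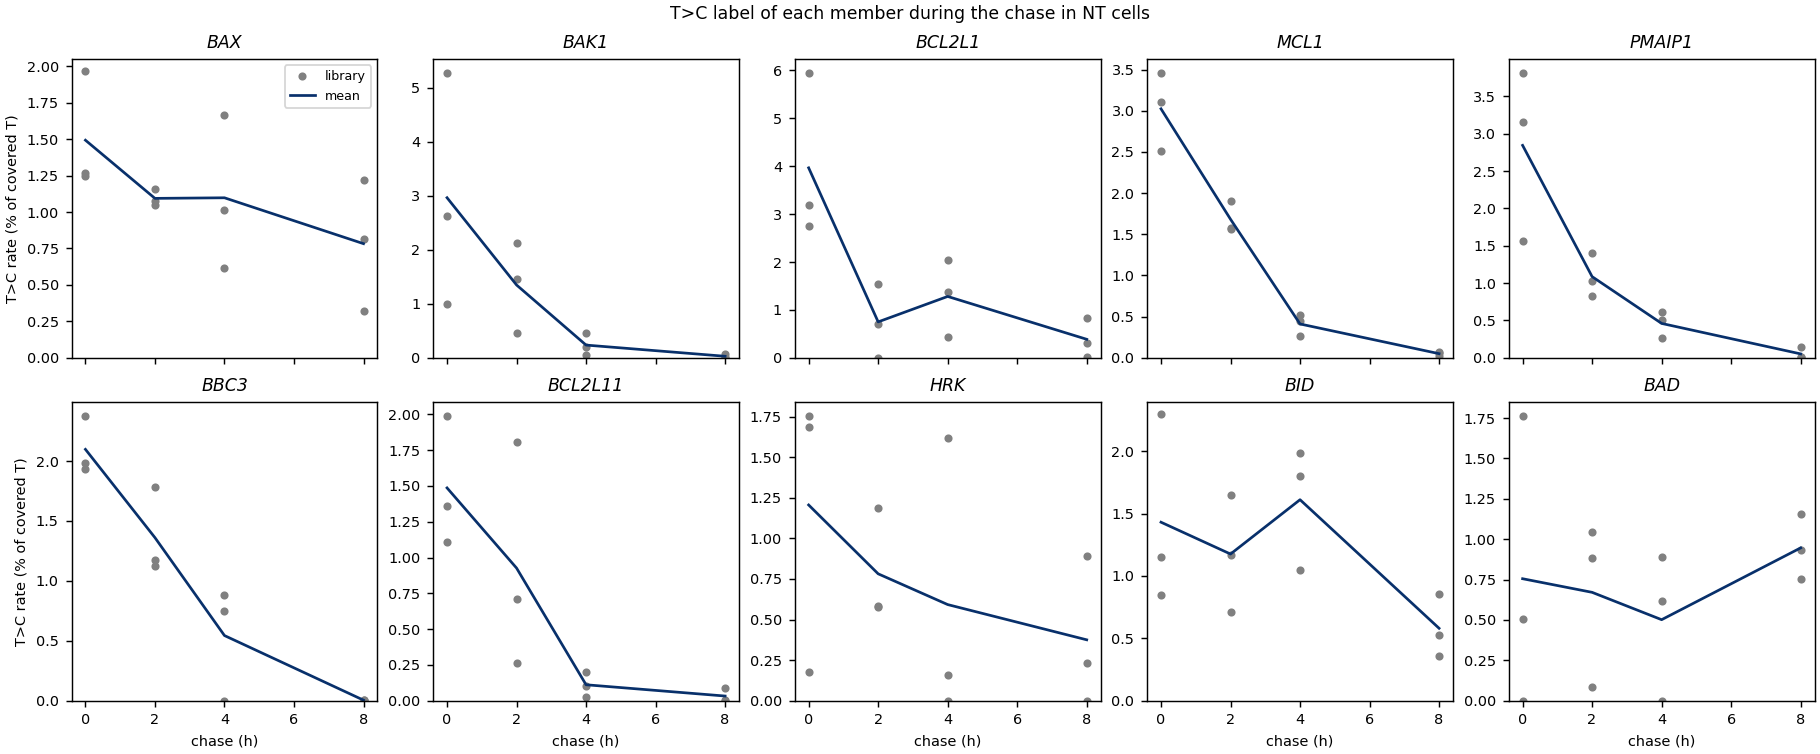
T>C rate of each member in the 3 NT libraries at each chase time (points, percentage of covered T positions) and their mean (line). MCL1 falls from 3.02% to 0.05% and PMAIP1 from 2.84% to 0.05%, while BAX falls from 1.49% to 0.78%.

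First-order curves through the NT means gave half-lives of 1.47 h for PMAIP1, 1.82 h for MCL1, 1.85 h for BCL2L11 and 2.30 h for BBC3. The median of 5544 genes in NT was 3.27 h. BAX had a half-life of 7.99 h, longer than 88.6% of those genes, but only 1 of its 3 replicates gave a curve that passed on its own, and that curve gave 3.22 h. The curves of the 3 MCL1 replicates gave 1.84 ± 0.22 h (SD) and those of PMAIP1 1.62 ± 0.50 h. BAK1 and BCL2L1 gave 1.48 and 1.32 h from few conversions, HRK gave 4.05 h, and BID and BAD had no curve with an R² over 0.6. PMAIP1, MCL1 and BCL2L11, the members with several heptamers, were thus on the short side. So were BBC3 and BAK1, which hold none, and BCL2L1, which holds 1.

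The rate of label loss per hour was compared with NT in the members that passed a CPM filter, which gave 65 tests. A single test was called, MCL1 with the ZMAT3 hairpin. In data simulated for the ZMAT3 comparison alone, with a single starting rate and decay rate, this test missed most of the planted changes. Recovery in the other arms was not simulated. A missing call does not show equal rates. Of all genes tested, the share called was 0.573% in ZMAT3, 0.307% in PHF7, 0.0815% in ZFP36L1, 0.0684% in ZMAT5, 0.0579% in CNOT4, 0.0402% in MAZ, 0.0136% in ZNF706 and 0% in BRCA1. MCL1 rates at 0, 2, 4 and 8 h were 4.66% ± 0.74, 3.25% ± 0.61, 1.19% ± 0.25 and 0.26% ± 0.04 in ZMAT3 (SD, n = 3), and 3.02% ± 0.48, 1.68% ± 0.20, 0.41% ± 0.13 and 0.05% ± 0.02 in NT. The ZMAT3 libraries carried more label at each chase time. The fitted loss was 0.377 per hour in ZMAT3 and 0.533 in NT, a difference of −0.16 ± 0.04 (SE) with an adjusted p of 0.0494 by edgeR. The call was lost with each replicate left out in turn (edgeR adjusted p from 0.105 to 0.216), with the replicate number as a block (0.0543) and without the 8 h libraries.

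The MCL1, PMAIP1 and BBC3 slopes were less steep than in NT in all 8 arms, and that of BAK1 in all 7 tested. All of these share the NT slope, so they amount to 1 set of NT libraries set against each arm. For MCL1 the rate was 0.533 per hour in NT and 0.305 to 0.476 in the targeting arms. The PMAIP1 rate was 0.494 in NT and 0.271 to 0.448 in the targeting arms. BAK1 stood at 0.621 in NT and 0.122 to 0.288 in the targeting arms, and BBC3 at 0.709 and 0.301 to 0.532. Over the 65 tests, 44 slopes were less steep and 20 of them had an unadjusted p under 0.05 in the edgeR fits. All 20 were in BAK1 (7), MCL1 (6), PMAIP1 (5) and BBC3 (2), each set against its own repeated NT slope. The NT libraries at 8 h held 2, 0 and 1 BAK1 conversions, and part of the BAK1 reads were multimapped. The 20 are thus not an excess spread over the members. Of all genes, the slope was less steep in 50.8% (BRCA1), 74.8% (CNOT4), 46.0% (MAZ), 62.4% (PHF7), 44.0% (ZFP36L1), 65.0% (ZMAT3), 62.6% (ZMAT5) and 54.7% (ZNF706). It was less steep at an unadjusted p under 0.05 in 3.55%, 7.91%, 4.33%, 9.27%, 4.78%, 10.6%, 7.92% and 5.70% of genes in that order.

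The half-lives did not rank NT the same way for each of these members. Over all genes with a half-life, the median was longer than the 3.27 h of NT in every arm but BRCA1 (3.25 h). It was 3.40 h in CNOT4, 3.78 h in ZFP36L1, 4.04 h in ZMAT5 and 4.12 h in ZNF706. MAZ, PHF7 and ZMAT3 had medians of 4.43, 4.68 and 5.06 h. These medians cover different sets of genes, 5544 in NT and from 4631 in CNOT4 to 7971 in ZFP36L1. They therefore do not show whether the same genes had longer half-lives. The PMAIP1 half-life was longer than in NT in all 8 arms, 1.82 to 2.56 h against 1.47 h. For MCL1 it was longer in 5 of 8, 1.58 to 2.49 h against 1.82 h, with ZMAT3 and ZMAT5 highest at 2.49 and 2.36 h. BBC3 had a longer half-life in only 2 of 8 arms, 1.48 to 3.47 h against 2.30 h, although its slope was less steep in all 8. The NT slope of BBC3 rests on 4 conversions at 8 h.

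BAX and BID had no call in label loss. At 8 h BAX kept 43.5% to 61.9% of its 0 h rate over the 9 arms, and BID kept 24.9% in ZMAT5, its lowest, to 63.9% in ZNF706. The BAX rate of loss was 0.0744 per hour in NT and 0.0607 to 0.102 in 7 targeting arms, with no unadjusted p under 0.577 in the edgeR fits. That includes the libraries labelled ZFP36L1, where the level was lowest of those tested. The rate there was 0.0797 per hour, a difference of 0.01 ± 0.08 (SE) from NT. This SE is about as large as the NT rate itself, so the test could not settle whether the rates differed. CNOT4 held 114 BAX conversions in all and was not tested. BID stood at 0.103 per hour in NT and 0.0687 to 0.156 in the targeting arms.

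**Figure D4:**
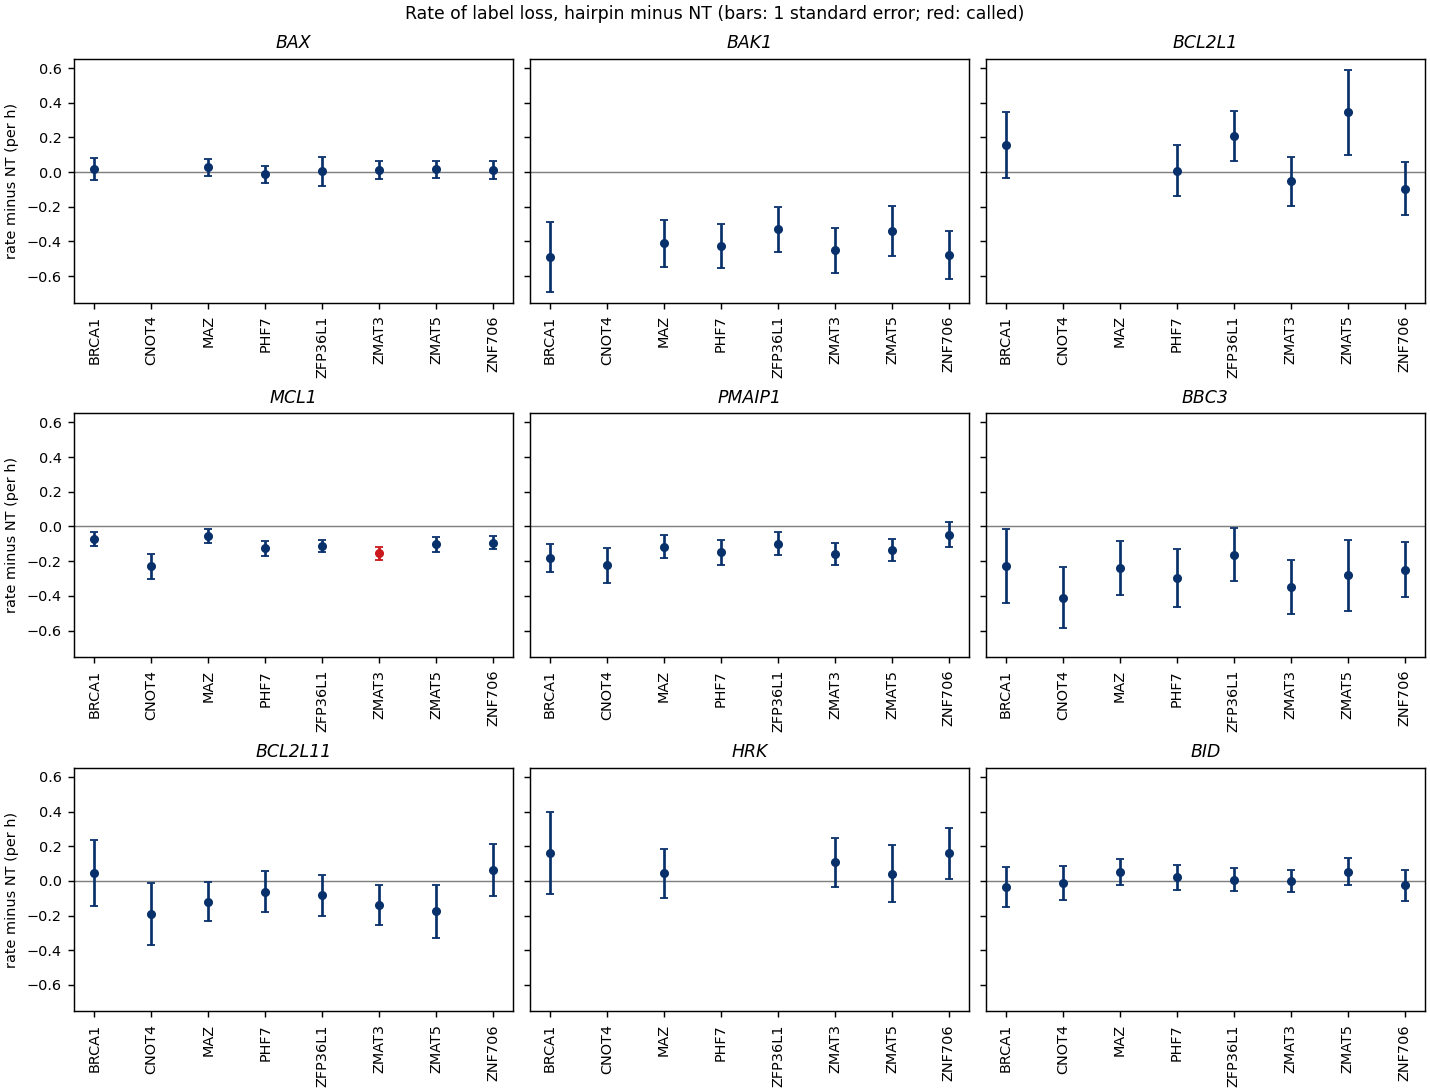
Difference in the rate of label loss (per hour) between each hairpin and NT for the 9 members tested, with bars of 1 standard error and the called value in red. BAX and BID lie around 0, while MCL1, PMAIP1, BBC3 and BAK1 lie below 0 in every arm tested, all against the same NT slope.

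At 0 h, label was called higher than in NT for BAX, MCL1, BBC3 and BCL2L11 with the MAZ hairpin and for MCL1, BBC3 and BCL2L11 with the ZMAT3 hairpin, and lower for MCL1 with the ZMAT5 hairpin. These arms differed from NT as a whole: 37.5%, 31.1% and 3.69% of all genes were called, beside 0.0407% in ZFP36L1 and none in the other arms, and the pooled rates were 2.96% ± 0.20, 3.03% ± 0.52 and 1.28% ± 0.04 against 1.79% ± 0.08 in NT. Once each library was centred on its pooled rate, no member was called by edgeR, 3 of 65 tests had an unadjusted p under 0.05, and the share of all genes called was 0.0145% in CNOT4, 0.0407% in ZFP36L1 and 0% elsewhere.

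Other genes of the pathway were read from lists. Of 14 other BCL2 family genes, 9 to 11 were tested per arm. Calls were 2 higher in CNOT4, 2 higher in ZFP36L1, 2 lower in ZMAT3, 1 higher in ZMAT5 and 0 in BRCA1, MAZ, PHF7 and ZNF706, beside 27.0%, 40.0%, 10.2% and 9.51% of all genes called in the first 4 of these arms. BNIP3L, a mitophagy receptor, was higher in CNOT4 (log2 fold 1.31 ± 0.46) and in ZFP36L1 (0.95 ± 0.27), as was BCLAF1 in ZFP36L1 (0.41 ± 0.10), and BNIP3 and BCL2L12 were lower in ZMAT3 (−0.49 ± 0.13 and −0.35 ± 0.11). BCL2L15 made up the calls left in CNOT4 and ZMAT5, with a read in 5 of 12 libraries of either arm and in none of NT, so no fold is given. The median log2 fold of the members was −0.46 in CNOT4 and −0.50 in ZFP36L1, beside 0.08 and 0.15 over all genes tested.

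Among 20 apoptosome, caspase and inhibitor genes, 2 were called higher and 2 lower in CNOT4 and 4 higher and 3 lower in ZFP36L1, which is 4 and 7 of 20 beside 27.0% and 40.0% of all genes. Calls were 1 higher and 1 lower in MAZ, 1 and 2 in ZMAT3, 1 and 1 in ZMAT5, 0 and 1 in ZNF706 and 0 of either in BRCA1 and PHF7. CYCS, which encodes cytochrome c, was lower in CNOT4 (log2 fold −1.19 ± 0.14) and ZFP36L1 (−0.60 ± 0.08), and XIAP, a caspase inhibitor, was higher in CNOT4 (1.07 ± 0.18). CASP2 was lower in ZMAT3, ZMAT5 and ZNF706, with log2 folds of −0.38, −0.82 and −0.84. Of all genes, 10.2% were called in ZMAT3, 9.51% in ZMAT5, 8.74% in MAZ, 8.41% in PHF7 and 5.15% in ZNF706. Of 9 partners at the mitochondrion, 1 was higher and 3 lower in CNOT4, 1 and 1 in ZFP36L1, 2 and 1 in PHF7, 4 and 1 in ZMAT3, 2 and 0 in ZMAT5, 1 and 0 in MAZ and ZNF706 and 0 of either in BRCA1. VDAC1, the outer membrane channel, was lower in CNOT4 (−1.65 ± 0.11) and ZFP36L1 (−1.05 ± 0.09) and higher in PHF7 (0.28 ± 0.08), ZMAT3 (0.52 ± 0.06), ZMAT5 (0.36 ± 0.07) and ZNF706 (0.37 ± 0.07). Among 8 death receptor genes, 7 were tested in each arm, with 1 higher and 1 lower in both CNOT4 and ZFP36L1 and no call elsewhere. CFLAR, the inhibitor of caspase-8 activation, was higher in CNOT4 (1.93 ± 0.29) and ZFP36L1 (1.49 ± 0.26), and TNFRSF1A, a receptor of tumour necrosis factor, was lower in both (−1.09 ± 0.38 and −1.09 ± 0.23).

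The list of MCL1 and NOXA protein regulators held 6 genes, all tested in each arm, with 2 higher and 2 lower in CNOT4, 2 and 3 in ZFP36L1, 0 and 1 in MAZ, 0 and 2 in ZMAT5, 0 and 1 in ZNF706 and no call in the other arms. UBE2M, a NEDD8-conjugating enzyme, was lower in CNOT4, MAZ, ZFP36L1, ZMAT5 and ZNF706, with log2 folds of −0.67, −0.51, −0.44, −0.61 and −0.63. FBXW7, a ubiquitin ligase subunit that recognises MCL1 protein, was higher in CNOT4 (1.28 ± 0.37) and ZFP36L1 (0.71 ± 0.19). MCL1 protein was not measured. Of all genes, 27.0% were called in CNOT4 and 40.0% in ZFP36L1. The share was 10.2% in ZMAT3, 9.51% in ZMAT5, 8.74% in MAZ, 8.41% in PHF7 and 5.15% in ZNF706. Of 20 p53 targets, 5 were higher and 2 lower in CNOT4, 5 and 3 in ZFP36L1, 1 and 3 in ZMAT3, 2 and 1 in ZMAT5, 1 and 2 in MAZ, 0 and 1 in PHF7, 1 and 0 in ZNF706 and 0 of either in BRCA1. The CNOT4 and ZFP36L1 counts are 7 and 8 of 20, near the 27.0% and 40.0% of all genes called there. ZMAT3 itself is on this list and is 1 of the 3 lower in its own arm. With the ZMAT5 hairpin the p53 target CDKN1A, a cell cycle inhibitor, was higher (1.78 ± 0.45), as was PMAIP1. The p53 targets BAX and BBC3 had log2 folds of 0.11 and −0.32 there and did not pass. Activity of p53 was not measured, so these levels do not show whether it differed between arms.

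The genes whose mean log2 level over the 36 groups was most like that of BAX were MORF4L2, TOR3A and RRS1, with Pearson r of 0.962, 0.960 and 0.958 among 9244 genes. UBFD1, HMGB2 and HYPK were most like MCL1, with r of 0.939, 0.937 and 0.934. SERINC1, HUS1 and EZR were most like PMAIP1, with r of 0.836, 0.831 and 0.820. These are descriptions over groups that share arms and depth.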

How the data were processed

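RNA of HEK293T libraries (12 in each of 9 arms) was read by QuantSeq 3′ sequencing after SLAM-seq. The authors aligned reads to hg38 with SlamDunk 0.4.3, keeping multimapped reads, and deposited counts of reads, covered T positions and conversions for each 3′ UTR interval, a CPM column scaled to mapped reads and a conversion rate as a fraction. A strand setting is not given in the methods or labels. Intervals were summed per gene, and GENCODE release 44 named 19501 of 19761 genes. File starts count from 0 and are printed from 1.

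Levels were tested with edgeR 4.0.16 (R 4.3.3, quasi-likelihood, trimmed mean of M values or TMM scaling, filterByExpr) on 12 libraries per targeting hairpin and 12 of NT, with chase time as a factor. P-values were adjusted by Benjamini-Hochberg over all tested genes. Label loss was the slope of conversions over chase hours in edgeR, offset by log T coverage, where 2 or more replicates of each group passed 5 CPM. Label at 0 h was tested alike. Half-lives followed the study's methods. Alternatives used DESeq2 1.42.0 and limma 3.58.1, other filters, libraries and references. The fit was tested on data simulated for the ZMAT3 comparison alone, in which the label-loss test missed most planted changes. The methods and labels describe no molecular identifiers, and depth covers counting error only. Every member is named, with up to 4 called genes per list, those of smallest p. The members and lists were chosen with earlier results of these data known. The ARE windows come from the hg38 reference.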

Additional observations from a re-analysis of the deposited data

How the results depend on the processing

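Of 17 calls in level, 6 held in each alternative: BAX in CNOT4 and ZFP36L1, MCL1 in CNOT4 and ZFP36L1, and PMAIP1 in CNOT4 and ZMAT5. Of 63 member tests that were not called, 16 were called in some alternative. The number of members called in BRCA1 was 1, and 0 in the 0 h libraries alone or without the 8 h libraries and 3 against the other 7 targeting arms, with 0 to 1 when a replicate was left out. In MAZ it was 1, and 0 in the 0 h libraries alone or against the other 7 targeting arms, with 0 to 1 when a replicate was left out. In PHF7 it was 3, and 0 in the 0 h libraries alone, with 1 to 3 when a replicate was left out. In ZFP36L1 it was 4, and 2 in the 0 h libraries alone, without the 8 h libraries, against the other 7 targeting arms or per interval. In ZMAT3 it was 2, and 0 in the 0 h libraries alone and 1 against the other 7 targeting arms. In ZMAT5 it was 2, and 4 with DESeq2 or all libraries in 1 fit and 1 in the 0 h libraries alone. In ZNF706 it was 0, and 3 with DESeq2, 1 without a low-count filter, 2 with all libraries in 1 fit and 2 against the other 7 targeting arms, with 0 to 1 when a replicate was left out. The 0 h libraries alone hold 3 a side, and the cause of the other changes was not tested.

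For label loss, 1 member was called in CNOT4 without the shallow library, and 0 to 1 in CNOT4, PHF7 and ZMAT5 when a replicate was left out. In ZMAT3 the count was 2 with limma and 0 without the 8 h libraries, with 0 to 1 when a replicate was left out. For label at 0 h, centring each library gave 0 in MAZ, ZMAT3 and ZMAT5, and leaving out a replicate gave 0 to 2 in MAZ, 0 to 3 in ZMAT3 and 0 in ZMAT5. After centring, the log2 difference of MCL1 at 0 h turned to −0.064 in MAZ and −0.13 in ZMAT3. No member was called by chase time in any alternative.

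With the replicate number as a block, the count of members called in level in BRCA1 went from 1 to 0, label loss in ZMAT3 from 1 to 0, and label at 0 h in ZMAT3 from 3 to 1, and that in ZMAT5 to 0. No other count of members moved by over 1.5 times under the block. Deviations of same-numbered libraries from their group means had correlations of −0.03 to 0.04 over 96 pairs, and 33 of 96 libraries of the targeting arms lay closest to the NT library of their own number, so the numbers were not taken to pair the samples. Depth limits HRK, BAD, BAK1 and BCL2L1, whose label rests on few conversions per library.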
